A study of Mus musculus with 2 samples.

Results

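Granzymes, perforin and the other proteins of the cytotoxic granule were followed in sorted mouse regulatory T (Treg) cells of 2 libraries, labelled Nr4a-deficient and wild-type. The members were the 10 genes Gzma, Gzmb, Gzmc, Gzmk, Gzmm, Prf1, Srgn, Serpinb9, Ctsw and Nkg7, chosen by name among the 30175 gene names of the array design. All 10 had a gene probe on the array, 8 genes with 1 probe and Gzmk and Nkg7 with 2, which gave 12 probes of 60 bases. Each of these probes was printed in 1 spot, was well above background on both arrays, and was neither saturated nor flagged as an outlier.

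The study compared 1 library labelled Nr4a-deficient, from mice that the protocol calls Nr4a-TKO, with 1 wild-type library. The mice were 5 weeks old, the sorted cells were lysed directly, and 600 ng of RNA entered the labelling reaction with the dye Cy3. A single-colour Agilent array was used for each library, and the 2 arrays lay on 1 slide. The sort markers, the tissue, the strain, the number of animals, the deleted part of each Nr4a gene and the cells in which it was deleted are not given in the sources used here.

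Cytotoxic granules are secretory lysosomes that cytotoxic T cells and natural killer (NK) cells release onto a target cell. Perforin opens the target's membrane, and the granzymes, serine proteases held in the granule by the proteoglycan serglycin, enter and trigger cell death. Treg cells can make granzyme B, and granule killing is 1 of the ways in which they are known to restrain other immune cells. Granzyme genes lie in clusters, those for granzymes A and K together and those for granzymes B to G and N together, and the gene for granzyme M lies apart.

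With 1 library per genotype, no difference could be tested, and each value describes these 2 libraries. Signals are given in intensity units as the scanner software reports them, with that software's own error for the spot. Differences are on the log2 scale and give the library labelled Nr4a-deficient relative to wild-type, once both arrays had been divided by the 75th percentile of their gene probes (1762 and 2047 intensity units). Errors of a difference combine the software's errors of both spots. For probes printed in 10 spots, the SD of a difference between spots was 0.074 for bright probes, 0.088 and 0.14 for the next lower ranges and 0.54 for the dimmest. Spot errors leave out animals, sorts and RNA preparations. On spike-in RNAs as the scale (8 probes, shift 0.37 ± 0.057, SD), each difference is 0.37 lower.

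The label was checked on the targeted genes first. The signal of Nr4a1 was 80407 in the library labelled Nr4a-deficient against 51441 in wild-type, and both probes of Nr4a2 were also brighter in the former (differences 0.98 and 0.68). On neither array was Nr4a3 well above background. Its probe, printed in 10 spots, gave 23.7 (spot SD 8.92) in the library labelled Nr4a-deficient and 72.0 (spot SD 7.26) in wild-type. A probe outside the deleted part checks nothing, so each direction below rests on the label. The T cell genes Cd3d, Cd3e, Cd3g and Cd4 were well above background on both arrays, with differences from -0.08 to 0.18, or from -0.45 to -0.18 on the spike-in scale. The probe of Foxp3, the lineage factor of Treg cells, gave 74.5 and 85.4 intensity units, close to the lowest signals called well above background (51.1 and 73.8).

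The granule genes did not differ in 1 direction. In the library labelled Nr4a-deficient, Gzmb (granzyme B) was higher by 18.3-fold and Nkg7 (a granule membrane protein) by 2.14-fold, and Ctsw (cathepsin W) was lower by 2.90-fold. The other 7 members lay within 2-fold at their brightest probe, although Gzmk was 4.80-fold lower at its second probe. So 2 of 10 members were at least 2-fold higher and 1 was at least 2-fold lower. Among all 18540 genes measured or bounded in this way, 4.7% were at least 2-fold higher (871 genes) and 4.94% at least 2-fold lower (915 genes). That split was 561 higher and 1508 lower on the spike-in scale, and 678 higher and 1195 lower with no scaling. Among the 16298 genes detected on both arrays, as all members were, the shares were 2.64% higher and 3.06% lower. In either direction, 3 of 10 members passed 2-fold, beside 9.63% of the 18540 genes and 5.71% of the 16298. Within 0.5 on the log2 scale lay 6 of 10 members, beside 85.2% of the genes on both arrays, and below 0 lay 4 of 10, beside 52.2%. With so few members, these counts are given as a description. The median difference of the members was 0.06, beside -0.014 for all genes on both arrays, or -0.31 beside -0.38 on the spike-in scale.

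**Figure D1:**
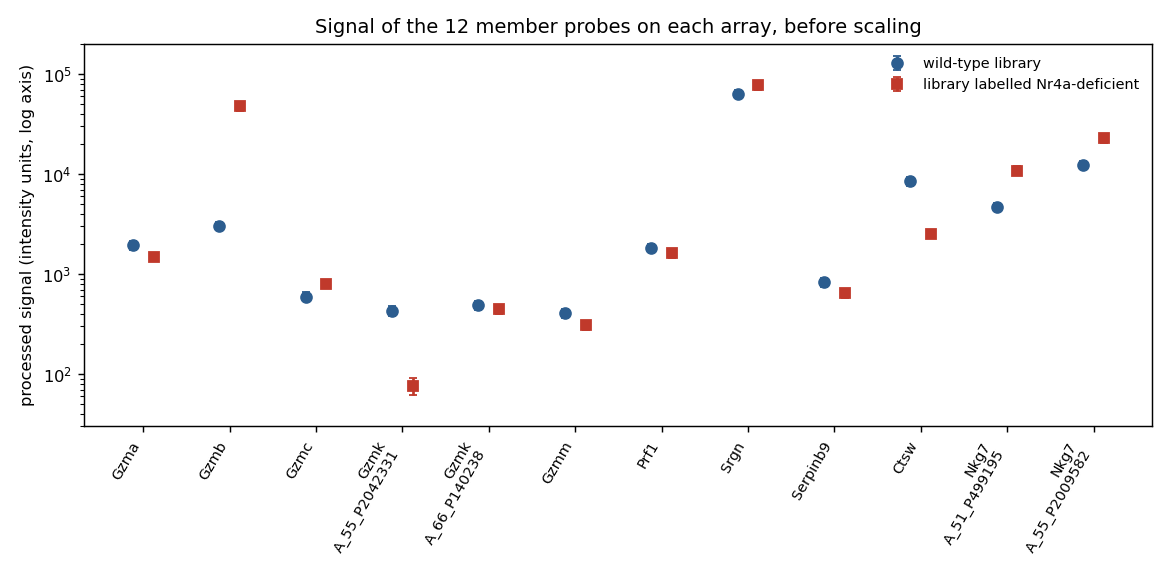
Processed signal of each of the 12 member probes (intensity units, log axis) on the wild-type array (circles) and on the array of the library labelled Nr4a-deficient (squares), before scaling, with the scanner software's error as bars, most of them hidden by the symbols. Gzmb shows the widest upward gap (3041 and 47849), and Ctsw (8523 and 2535) and the Gzmk probe A_55_P2042331 (429 and 76.8) the widest downward gaps.

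Among the granzymes, only Gzmb differed by 2-fold or more at its brightest probe. Granzyme B, the protease that cleaves proteins after aspartate and activates caspases, gave a signal of 47849 ± 4785 in the library labelled Nr4a-deficient against 3041 ± 305 in wild-type. The difference was 4.19 ± 0.20, or 18.3-fold, and 14.1-fold on the spike-in scale. Over 13 alternative settings it ran from 3.82 to 4.24. Of the 16298 genes on both arrays, 13 had a higher difference than Gzmb. The probe lies on mm9 at chr14:56877916-56877975, on the minus strand, and its first 30 bases are shown to identify the transcript behind this value.
Gzmb probe A_51_P333274, bases 1 to 30: ccccgagaatgttatctaatgctagtcatc

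Gzmc, the neighbour of Gzmb in the cluster on chromosome 14, was higher by a smaller amount. Its signal was 801 ± 80.9 in the library labelled Nr4a-deficient against 597 ± 62.0 in wild-type. The difference was 0.64 ± 0.21 (1.56-fold), and 0.27 (1.21-fold) on the spike-in scale. The probe lies at chr14:56850307-56850366 on mm9. The rest of the cluster gave no level that could be compared. Gzmd, Gzme, Gzmf, Gzmg and Gzmn were not well above background on either array, with signals from 10.1 to 29.8 over their probes. The same held for the chymase-type proteases of the locus Ctsg, Cma1, Mcpt1, Mcpt4, Mcpt8 and Mcpt9. Of the 13 other locus genes, 2 were detected, and none passed 2-fold. Cma2 lay at 0.05, or -0.32 on the spike-in scale, and Mcpt2, detected in just the library labelled Nr4a-deficient, was higher there by at least 1.32-fold. Such a bound takes, for the array without detection, its lowest detected signal or the probe's own, whichever is larger. The granzymes of this cluster are close paralogs, and the Gzmc probe's reach to their transcripts was not tested.

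The promoters of Gzmb and Gzmc are printed because these neighbours differed so unequally. Each run is the 250 bases before the RefSeq start (assembly GRCm38.p6), and capitals mark matches to 6 motifs searched on both strands. These were NBRE (AAAGGTCA, bound by Nr4a receptors), AP-1 (TGANTCA), CRE (TGACGTCA), RUNX (TGTGGT), T-box (GGTGTGA) and STAT (TTCNNNGAA), and no match overlapped another in the runs shown.
Gzmb chr14:56262335-56262584, minus strand: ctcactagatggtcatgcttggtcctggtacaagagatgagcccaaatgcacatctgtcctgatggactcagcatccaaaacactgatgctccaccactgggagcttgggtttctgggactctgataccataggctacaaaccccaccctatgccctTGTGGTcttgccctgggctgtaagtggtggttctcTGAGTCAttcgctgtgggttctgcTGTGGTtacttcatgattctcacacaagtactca
Gzmc chr14:56234658-56234907, minus strand: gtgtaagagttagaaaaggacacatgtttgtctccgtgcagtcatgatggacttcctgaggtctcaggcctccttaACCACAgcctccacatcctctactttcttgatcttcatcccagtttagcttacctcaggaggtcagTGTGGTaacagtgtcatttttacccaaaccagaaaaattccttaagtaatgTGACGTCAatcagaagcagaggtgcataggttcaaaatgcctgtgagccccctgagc

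In the Gzmb window an AP-1 match began 58 bases and RUNX matches 93 and 34 bases before the start. In the Gzmc window a CRE match began 57 bases before the start, with RUNX matches at 174 and 108. The same windows of Gzmf and Gzmg also held a CRE match, and those of Gzmd and Gzme did not. Aligned over their whole length, the Gzmc window was identical to that of Gzmd at 81.3% of positions and of Gzme at 81.8%. For Gzmf the share was 71.5%, for Gzmg 74.5%, for Gzmn 52.4% and for Gzmb 50.2%. The values for Gzmn and Gzmb lay within the range of pairs from different clusters by the same alignment. That range ran from 46.0% for Gzma and Gzmm to 54.0% for Gzmb and Gzmm. No NBRE match was found in the 11 windows of the 9 members in the table, while 1.34% of all 32851 promoter windows held one, those of Gzmd and Gzme among them. AP-1 stood in 6.75%, CRE in 1.55% and RUNX in 14.0% of all windows, and in 1, 1 and 7 of the 11 member windows. A match is a description of letters in this window only.

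Gzma and Gzmm lay close together on both arrays. Granzyme A, a protease that cleaves after basic residues, gave 1492 ± 150 in the library labelled Nr4a-deficient against 1937 ± 195 in wild-type, a difference of -0.16 ± 0.20. Granzyme M, which cleaves after methionine, gave 308 ± 33.2 and 407 ± 44.4, a difference of -0.19 ± 0.22. Both differences were smaller than their errors. On the spike-in scale they were -0.53 and -0.56, and over the 13 alternatives all values stayed below 0. The probes lie on mm9 at chr13:113884035-113884094 (Gzma, minus strand) and chr10:79157946-79158005 (Gzmm, plus strand).

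For Gzmk, the result depended on the probe. Granzyme K is a close relative of granzyme A with a similar cleavage preference. The probe A_66_P140238, designed on the RefSeq transcript and starting at its base 18, gave 447 ± 45.9 in the library labelled Nr4a-deficient against 491 ± 51.4 in wild-type. That difference was 0.08 ± 0.21, and -0.29 on the spike-in scale. The probe A_55_P2042331, designed on an Ensembl transcript of the gene and starting at its base 1244, gave 76.8 ± 14.5 and 429 ± 46.2. That probe was lower by 4.80-fold (-2.26 ± 0.31). The gap between the probes was 2.35 ± 0.38 by the software's errors, against a spot-noise SD of 0.56 for such a gap. With normexp background correction the second probe's difference was -1.38, and over 12 alternatives it stayed below -1. The mean of both probes put Gzmk at -1.09, past 2-fold lower.

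The Gzmk probe sequences are shown because these probes gave unequal values. The first maps to chr13:113970774-113971087 on mm9, a span of 314 bases for a probe of 60, so its bases are split over separate blocks of the genome. The second maps to chr13:113961816-113961875 without a gap and holds the letters AATAAA, the usual polyadenylation signal, in capitals. No mm9 annotation was used, so the exon under each probe is not given.
Gzmk probe A_66_P140238, bases 1 to 60: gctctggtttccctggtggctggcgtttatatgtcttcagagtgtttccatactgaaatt
Gzmk probe A_55_P2042331, bases 1 to 30: cgttcatcctaAATAAAatgtggacgtctg

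**Figure D2:**
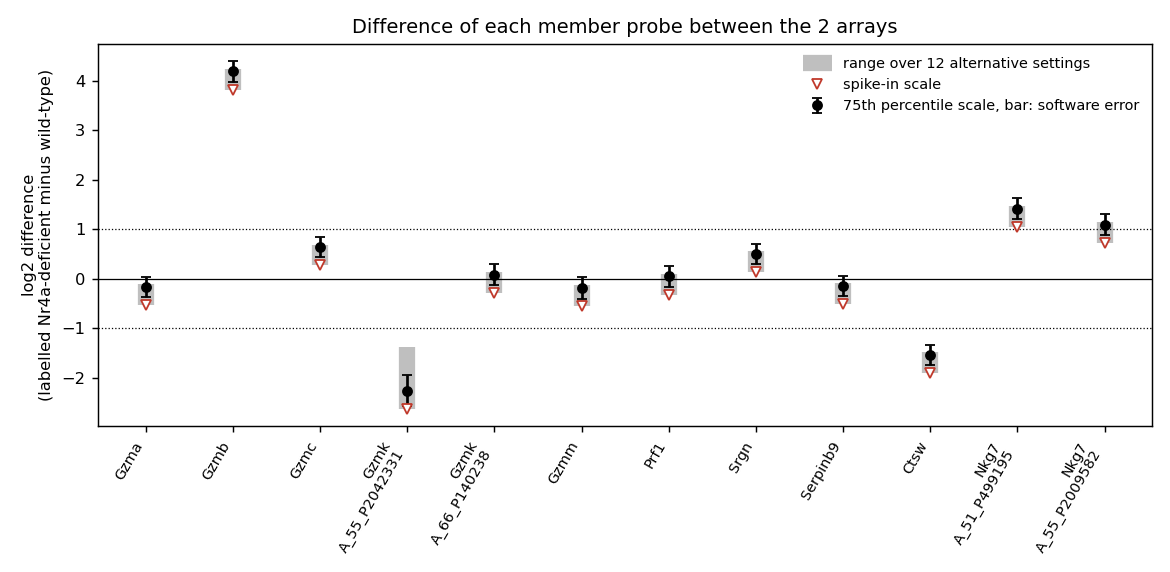
Log2 difference of each member probe (Nr4a-deficient label minus wild-type) on the 75th-percentile scale (points, bars give the software's error), with the range over 12 alternative settings (grey) and the value on the spike-in scale (triangles). Dotted lines mark 2-fold. Gzmb (4.19), both Nkg7 probes (1.42 and 1.10), Ctsw (-1.53) and 1 of the 2 Gzmk probes (-2.26) lie past 2-fold on the 75th-percentile scale.

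Perforin did not share the difference of granzyme B. Prf1, the gene of the pore-forming protein, gave 1627 ± 163 in the library labelled Nr4a-deficient against 1830 ± 184 in wild-type. Its difference was 0.05 ± 0.20, or -0.32 on the spike-in scale, and it turned below 0 in 3 of 13 alternatives. The probe lies at chr10:60766941-60767000 on mm9, plus strand. Srgn, the gene of serglycin, the granule's core proteoglycan, gave 77195 ± 7720 and 63535 ± 6353. It was 1.41-fold higher (0.50 ± 0.20), and 0.13 on the spike-in scale. Its probe lies at chr10:61957432-61957491, minus strand.

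Nkg7 was higher at both of its probes. The gene encodes a membrane protein of cytotoxic granules that takes part in their release. The probe A_55_P2009582 gave 22872 ± 2287 in the library labelled Nr4a-deficient against 12418 ± 1242 in wild-type, 2.14-fold higher (1.10 ± 0.20). The probe A_51_P499195 gave 10848 ± 1085 and 4712 ± 471, 2.67-fold higher (1.42 ± 0.20). Their gap of 0.32 was near its software error of 0.29 and above the spot-noise SD of 0.10 for such a gap. On the spike-in scale the values were 0.73 and 1.05, so the first probe was then within 2-fold. The probes lie at chr7:50693530-50693589 and chr7:50693148-50693207 on mm9, plus strand, and are shown as the pair of measurements behind this call.
Nkg7 probe A_51_P499195, bases 1 to 60: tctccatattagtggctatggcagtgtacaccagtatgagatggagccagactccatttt
Nkg7 probe A_55_P2009582, bases 1 to 30: aaggaatgcagaattctgtctctgtccctc

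The Nkg7 promoter window, the member with the next highest difference after Gzmb, had no AP-1 match. It held a STAT match 220, a RUNX match 83 and a T-box match 13 bases before the start, again in capitals. T-box letters stood in 3.33% and STAT letters in 7.02% of all windows, and in 3 and 2 of the 11 member windows.
Nkg7 chr7:43436888-43437137, plus strand: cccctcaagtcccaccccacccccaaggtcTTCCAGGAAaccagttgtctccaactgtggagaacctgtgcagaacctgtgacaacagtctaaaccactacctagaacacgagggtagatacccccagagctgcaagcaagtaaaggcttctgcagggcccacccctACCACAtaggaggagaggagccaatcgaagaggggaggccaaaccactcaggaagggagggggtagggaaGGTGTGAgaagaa

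The inhibitor of granzyme B did not share its difference. Serpinb9, a serpin that protects the cell from its own granzyme B, gave 650 ± 66.2 in the library labelled Nr4a-deficient against 833 ± 85.1 in wild-type (-0.14 ± 0.21, or -0.51 on the spike-in scale). Ctsw went the other way. This cysteine protease of cytotoxic lymphocytes gave 2535 ± 254 in the library labelled Nr4a-deficient against 8523 ± 853 in wild-type, lower by 2.90-fold (-1.53 ± 0.20). Its value ran from -1.90 to -1.48 over 13 alternatives, and 244 of 16298 genes had a lower difference. The probes lie on mm9 at chr13:33109767-33109824 (Serpinb9, plus strand) and chr19:5465315-5465374 (Ctsw, minus strand).

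**Figure D3:**
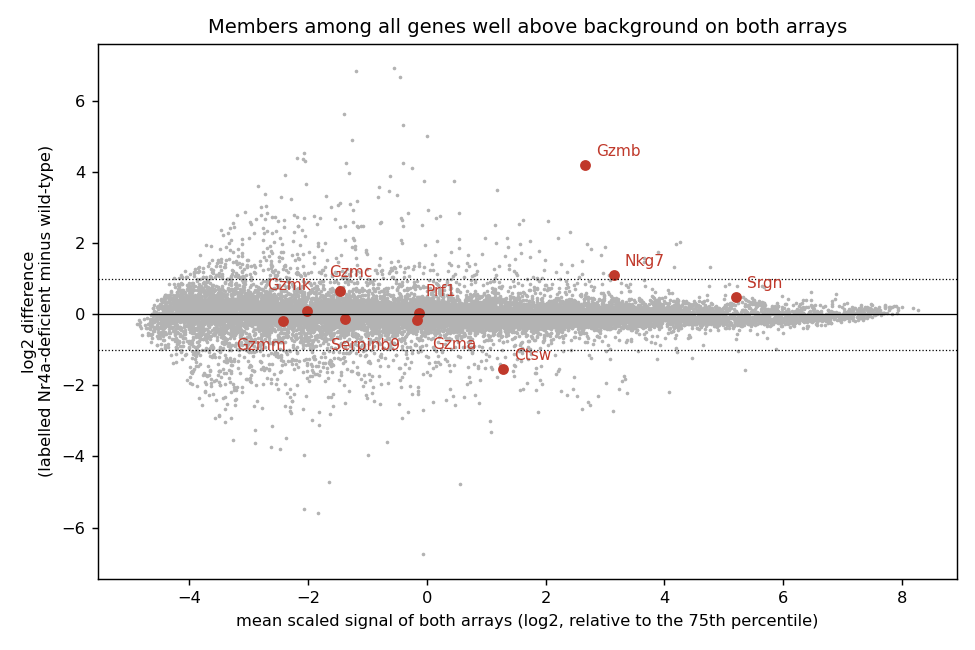
Log2 difference (Nr4a-deficient label minus wild-type) against the mean scaled log2 signal for the 16298 genes detected on both arrays (grey), with the 10 members at their brightest probe (red) and 2-fold marked by dotted lines. Gzmb (4.19) stands far above the cloud, Ctsw (-1.53) below it, and the spread of all genes widens toward dim signals.

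Genes that act on the granule or on its proteases were listed in 7 groups of 90 genes in all, of which 73 were detected. At least 2-fold higher were 4 of these (5.48%), and 4 were at least 2-fold lower (5.48%), or 2 and 6 on the spike-in scale. The first shares were near the shares of 4.7% and 4.94% over all genes. Among genes that activate, inhibit or sort granule proteases, Ctsh, a cathepsin that can activate granzyme B, was 3.55-fold higher (22556 and 7381), and Igf2r, a mannose 6-phosphate receptor that takes up and sorts such enzymes, was 3.20-fold lower (4431 and 16454). The other 6 of this group lay within 2-fold. Chosen after their values were seen, Ctsc, the main activator of granzymes, lay at -0.07, and its inhibitor Cst7 at 0.84. Ctsl lay at 0.99, just under 2-fold. On the spike-in scale, Ctsh was at 1.46, Cst7 at 0.47 and Ctsl at 0.62.

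Other serpins split. Of 12 related to Serpinb9, 7 were detected, with a median of 0.17. Serpinb6a, which inhibits several granule and lysosomal proteases, was 2.21-fold lower (5276 and 13543). Serpinb9e, a paralog of Serpinb9, was detected in just the library labelled Nr4a-deficient (164 against 17.5), at least 2.58-fold higher, but its other probe was not above background on either array (14.7 and 20.6), and with normexp and quantile normalization the bound was 1.74-fold. The paralogs Serpinb9b, Serpinb9c, Serpinb9d, Serpinb9f and Serpinb9g were not above background on either array.

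Granule transport and release genes hardly differed. All 20 were detected, 19 lay within 2-fold, and their median was 0.06. The exception was Sytl3, a synaptotagmin-like protein that binds Rab27, which was 3.99-fold higher (2626 and 765). Its second probe above background on both arrays gave 1.39. All 10 death ligands, receptors and granzyme substrates lay within 2-fold (median -0.10), but on the spike-in scale Tnfsf10, the death ligand TRAIL, was 2.42-fold lower. Medians of these groups shift with the scale by the same 0.37 as single genes.

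Transcription factors and cytokine receptors known to control granule genes also lay mostly within 2-fold. Of 17 factors, 16 were detected, with a median of 0.09. Id2, a factor of effector lymphocytes, was 2.08-fold higher (14949 and 8357), and 0.69 on the spike-in scale. Chosen after their values were seen, Tbx21, the factor T-bet, lay at 0.92, its relative Eomes at -0.38 and Prdm1, the factor Blimp-1, at 0.15. Hopx lay at -0.87, or -1.24 on the spike-in scale. Of 10 receptors, 2 were lower and none higher by 2-fold. Il2ra, the IL-2 receptor alpha chain, was 2.42-fold lower (16618 and 46649) and Il18r1, an IL-18 receptor chain, 2.03-fold lower (6050 and 14276). Their signals are among those that induce granzymes in T cells.

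**Figure D4:**
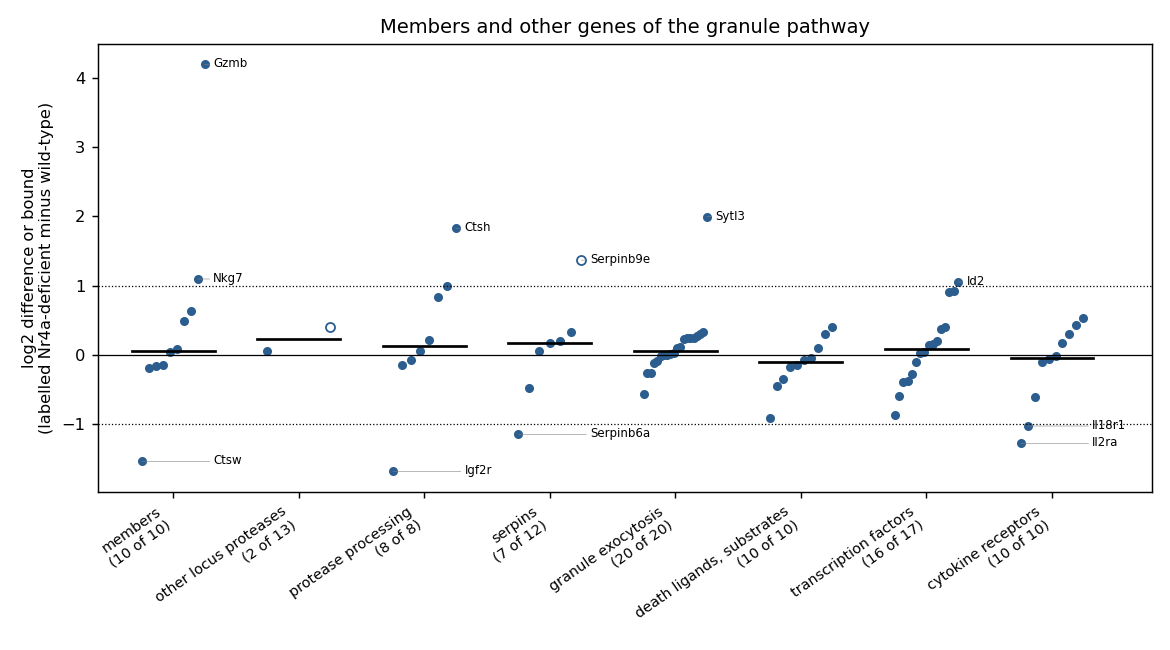
Log2 difference (Nr4a-deficient label minus wild-type) of each detected gene of the members and of 7 groups of the granule pathway, with measured values filled, bounds open and medians as bars, and the number of detected genes under each group. Genes past 2-fold (dotted lines) are named; Gzmb (4.19) is the highest, and the medians of all 8 columns lie between -0.10 and 0.23.

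Markers of other cell types, some of which carry granule genes, also differed between these libraries. In bulk samples, more cells of a type and more RNA per cell cannot be told apart. Plasmacytoid dendritic cell (DC) markers had the highest median of the marker lists, with 7 of 12 at least 2-fold higher, none lower and a median of 1.33. Cox6a2 was 114-fold (8217 and 83.8), Upb1 49.9-fold (4759 and 111), Tcf4 7.57-fold and Spib 5.67-fold higher. The wild-type signals of Cox6a2 and Upb1 were low. With normexp background correction and quantile normalization, Cox6a2 was 55.8-fold and Upb1 26.6-fold higher. All 12 were well above background on both arrays, with a summed scaled signal of 146 in the library labelled Nr4a-deficient against 109 in wild-type. Their defining receptor gene Siglech depended on the probe. Its brightest probe gave 136839 and 147869, a second one 12556 and 147, and the third 427 and 18.5. The sums use the brightest, and most of both sums came from that probe.

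NK cell markers lay mostly above 0, 5 above and 2 below, with a median of 0.79, or 0.42 on the spike-in scale. Of 12, 8 were well above background in the library labelled Nr4a-deficient against 5 in wild-type, and 3 were at least 2-fold higher. The summed scaled signals of the 12 were 16.6 and 12.02, and most of both sums came from Tyrobp and Fcer1g. Klrd1 was at least 13.1-fold higher (832 and 42.9), Klrk1 by at least 3.32 on the log2 scale (637 and 36.4) and Klra9 4.01-fold higher. Klrb1c lay at 0.65, Tyrobp at 0.94 (16206 and 9814), Fcer1g at -0.16 and Fcgr3 at -0.58 (348 and 605). With normexp background correction and quantile normalization, Klrd1 was at least 6.23-fold, Klrk1 at least 6.04-fold and Klra9 2.46-fold higher. The count of detected genes also moves with the lower detection floor of the array labelled Nr4a-deficient, where Klra8 was detected at 55.3 beside an undetected 55.9 in wild-type. Ncr1, which defines NK cells most closely, was not above background on either array (23.5 and 15.2), and neither were Klrc1, Klre1 and Klra4. The CD8 T cell genes Cd8a and Cd8b1 lay at 0.51 and 0.42, or 0.14 and 0.05 on the spike-in scale, with sums of 0.75 and 0.55.

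Mast cells and basophils, which also store granule proteases, gave little signal. Of 9 markers, 4 were detected on both arrays, with sums of 0.51 and 0.47, and Cpa3, Fcer1a, Ms4a2, Mcpt8 and Gata2 were not above background on either array. Hdc, which makes histamine, was 4.90-fold higher, or 2.72-fold with normexp and quantile normalization, and Kit lay at -0.97. Hdc was the 1 detected marker above 0, and 3 lay below. This list's median was -0.49, and it ran from -0.86 to -0.16 over 13 alternative settings. Of 8 neutrophil markers, 6 were detected, and Ly6g was 2.55-fold higher. The sums were 2.95 and 1.996, and Ngp and Ltf were not above background on either array. S100a8 and S100a9 lay at 0.31 and 0.14, and Mpo at 0.87. The list's median was 0.25, or -0.12 on the spike-in scale.

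B cell, myeloid and red cell markers differed too. Of 10 B cell markers, 8 were detected and all 8 lay above 0, with a median of 0.90, or 0.53 on the spike-in scale. The sums were 18.2 and 9.27, and Fcrla was 7.67-fold, Blnk 2.33-fold and Ebf1 2.25-fold higher. Blnk was 1.80-fold higher on the spike-in scale, and Ebf1 1.59-fold with normexp and quantile normalization. Cd79a lay at 0.75 and Cd79b at 0.82. Pax5 and Blk were not above background on either array. Of 11 macrophage and DC markers, 4 were higher and 4 lower by 2-fold, with a median of -0.31. Cd209a was at least 32.8-fold, Itgax 6.27-fold, Clec9a 5.63-fold and Lyz2 2.04-fold higher, and C1qc was 3.03-fold, C1qa 2.92-fold, C1qb 2.74-fold and Adgre1 2.45-fold lower, with sums of 47.2 and 62.9. With the probes of a gene averaged, Cd209a was 9.02-fold and Clec9a 3.63-fold higher, and on the spike-in scale Lyz2 was 1.58-fold higher. Xcr1 was not above background on either array. Of 9 red cell and platelet markers on the array, 5 were detected in the library labelled Nr4a-deficient against 3 in wild-type, with Gp1bb counted at 63.1 beside an undetected 68.1. Red cell genes Hba-a1 (3.52-fold), Hbb-bs (4.10-fold) and Alas2 (3.09-fold) were lower, with sums of 5.90 and 20.6, and the platelet genes Pf4, Ppbp, Itga2b and Gp9 were not above background on either array.

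The part of any of these cells in the differences of Gzmb, Nkg7 and Ctsw was not tested. In the same 2 libraries the T and Treg list had 12 of 14 genes within 2-fold and a median of -0.08, with Ikzf4 6.39-fold and Il2ra 2.42-fold lower and none higher by 2-fold. The summed scaled signal of that list was 277 in the library labelled Nr4a-deficient against 325 in wild-type.

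**Figure D5:**
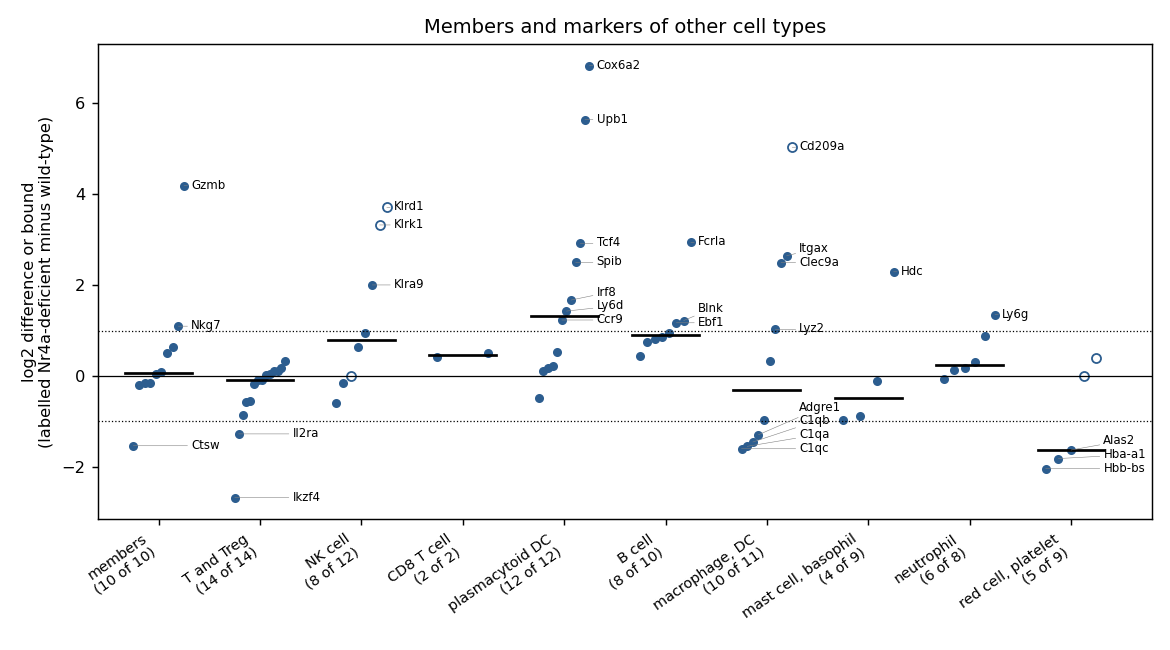
Log2 difference (Nr4a-deficient label minus wild-type) of the 10 members and of markers of other cell types, with measured values filled, bounds open and medians as bars, and the number of detected genes under each list. Plasmacytoid DC markers have a median of 1.33 and B cell markers of 0.90, red cell and platelet markers of -1.63, and T and Treg genes of -0.08.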

How the data were processed

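RNA from sorted Treg cells was hybridised to 2 single-colour arrays, 1 for each genotype. The deposited scanner files hold linear intensity values. Agilent Feature Extraction 10.7.3.1 corrected each array for background and for spatial and multiplicative trends, per the file headers, which record no step between arrays. The authors' deposited value table holds intensity values too. Of its 39348 probes that match the scanner files, 99.6% on each array lay within 1% of the scanner signal, not centred, with column medians of 143.7 and 156.8. Flags for outliers, saturation and signal well above background were read as deposited.

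Outlier spots were left out, spots of a probe were averaged, and signals were put on the log2 scale relative to the array's 75th percentile (Python 3.11.15, pandas 2.3.3). The background call of a probe was that of more than 50% of its spots (called were 58.7% of probes in the library labelled Nr4a-deficient, 55.6% in the wild-type library). Of several probes, the brightest one well above background on at least 1 array stood for the gene. Called higher or lower means at least 2-fold. Names were updated through RefSeq's table (assembly GRCm38.p6) for 27234 probes by accession, 3576 by symbol and 565 by synonym, and 8054 kept the array's name. Alternatives covered scale, background correction (normexp, offset 50, limma 3.58.1), value table, outliers, spot summary, probe rule, filter and fold threshold. Recovery of known folds on the 75th-percentile scale was tested on simulated arrays made from the wild-type array. Bounds and the other scales were not tested in this way. Named were all members with every probe, of each pathway list the genes past 2-fold, and of each marker list the first 3 genes and those past 2-fold, at most 4 in each direction, except 1 marker that is not reported here. Tnfsf10, Hopx, Tyrobp, Fcgr3, Fcer1g, Klra8 and Gp1bb, like the genes so marked in the text, were chosen after their values were seen. Members and lists were chosen with earlier results of these data known. No genes were named for a likeness of pattern, since 2 arrays give 1 difference per gene. The number of arrays limits the precision.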

Additional observations from a re-analysis of the deposited data

How the results depend on the processing

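No paired analysis was possible because each group had 1 library, and no replicate could be left out. Over 13 alternative settings, Gzmb and Nkg7 stayed higher and Ctsw lower in the library labelled Nr4a-deficient, with Gzmb and Ctsw past 2-fold in each. The number of members at least 2-fold higher was 2, and it was 1 on the spike-in scale, with no scaling between arrays and at a 3-fold threshold, and 3 at a 1.5-fold threshold, with Gzmc. The number at least 2-fold lower was 1, and it was 2 with the mean over the probes of a gene, through Gzmk, and 0 at a 3-fold threshold, both by construction. In the 7 pathway lists, 4 genes were at least 2-fold higher and 4 lower, against 2 and 6 on the spike-in scale and 3 and 6 with no scaling. Over the settings that kept the 2-fold threshold, the lower count ran from 3, where Il18r1 was within 2-fold, to 6. Below 0 in some settings were Prf1 (3 of 13) and Gzmk (4 of 13, of which 1 averaged its probes), and Gzma, Gzmm and Serpinb9 were below 0 in all 13. The medians of the pathway groups that were above 0 were all below 0 on the spike-in scale. Low signal limits the second Gzmk probe and Foxp3.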

Other observations

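The disagreement of the 2 Gzmk probes was unusual among these arrays. Of 3025 genes with 2 probes above background on both arrays, 16 (0.529%) had a gap at least as wide as that of Gzmk, where the median gap was 0.12 and the 95th percentile 0.78. For Nkg7, 20.1% of these genes had a gap at least as wide. Both shares are over probes of any brightness. The second Gzmk probe was dim in the library labelled Nr4a-deficient (76.8), and no share among equally dim probes was taken.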
